A study of Homo sapiens with 6 samples.

Results

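The 33 genes described here encode the nuclear pore complex and the core carriers that move cargo through it: 29 nucleoporins and 4 soluble transport factors. They were listed by name, and each was represented by its brightest probe among the 47 probes that its RefSeq accessions matched. All 33 had a probe, out of 22439 gene symbols with at least 1 probe and 58195 probes tested. RNA came from AGS, an established human gastric adenocarcinoma cell line, 48 h after transfection with a nontargeting siRNA (si-control, n = 3 arrays) or with 1 siRNA against C1GALT1 (si-C1GALT1-3, n = 3 arrays). C1GALT1 is the galactosyltransferase that builds the core 1 structure of O-linked glycans, and no other C1GALT1 siRNA was profiled on the arrays analysed here. Nothing in the labels says that the 3 arrays of a group came from separate cultures, so each p-value measures only the spread between these arrays.

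The nuclear pore complex is a large ring that perforates the nuclear envelope. Scaffold nucleoporins of the Y complex and the inner ring hold it in the membrane, and nucleoporins rich in phenylalanine-glycine repeats fill its channel and bind passing carriers. Importins bring cargo in, exportins take it out, and the GTPase Ran, loaded with GTP inside the nucleus, sets the direction. In dividing human cells the complex is taken apart and rebuilt at each mitosis.

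C1GALT1 itself had log2 signals of 12.22, 13.03 and 12.62 with si-control and of 11.76, 11.98 and 11.13 with si-C1GALT1-3. The groups did not overlap. Their means, 12.62 and 11.62, lay 2.00-fold apart (SE 0.31 in log2, adjusted p = 0.265 from limma), which did not pass an unadjusted p under 0.01. All signals below are log2 quantile-normalized intensities, and all differences are si-C1GALT1-3 minus si-control on that scale. The si-control 2 array held a dim rectangle at its centre, 9712 gene spots or 15.9% of them, in which its log2 signal minus that of si-control 1 and 3 had a median of -1.73, against 0.37 outside. Those spots were set to missing, which left 7 members (NUP160, SEH1L, NUP58, NUP98, RANBP2, KPNA2 and XPO1) with 2 si-control arrays and 3 si-C1GALT1-3 arrays. The 5 epithelial markers KRT8, KRT18, KRT19, EPCAM and CLDN4 gave signal well above background on each of the 6 arrays. Of 6 markers of other cell types, PTPRC, CD3E, COL1A1 and DES were also above background wherever they were measured, PECAM1 on 1 array of each group and COL1A2 on none. In limma 0 of the 6 had p under 0.05. PTPRC, by the brightest of its 5 probes, read 13.63 to 14.34, much like the epithelial marker CLDN4 at 13.35 to 14.08. CD3E was dim at 6.33 to 7.42.

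In the main fit, none of the 33 members passed the threshold of the study, p under 0.01 with a 2-fold change. That count keeps a dim si-control 2 spot of NUP54 just outside the masked region. With the region widened, or without si-control 2, NUP54 passed as lower (described below). Among all probes tested, 0.991% passed as lower and 1.65% as higher. At an unadjusted p under 0.05, 2 of the 33 members were called by limma (NUP107 and NUP153, both lower), against 13.8% of all probes, and the unmoderated test of each probe alone called 0 members at the threshold and 3 at an unadjusted p under 0.05. The smallest adjusted p of a member was 0.275 (limma, Benjamini-Hochberg over all probes), while 0.0842% of probes had an adjusted p under 0.05. The fitted difference was below 0 for 16 members, beside 50.9% of all probes, and above 0 for 17, NUP210 among the latter, with a median of 0.0054 beside -0.0048 over all probes. For 23 of 33 members (69.7%) the 95% interval lay wholly within a 2-fold change in either direction, beside 48.2% of all probes and 52.7% of those well above background. For the remaining 10 members a 2-fold change lay inside the interval, so for those these arrays did not bound the change that tightly. The 26 members measured on all 6 arrays, NUP54 with its dim spot among them, gave the same count of 0 and a median of 0.0015.

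**Figure D1:**
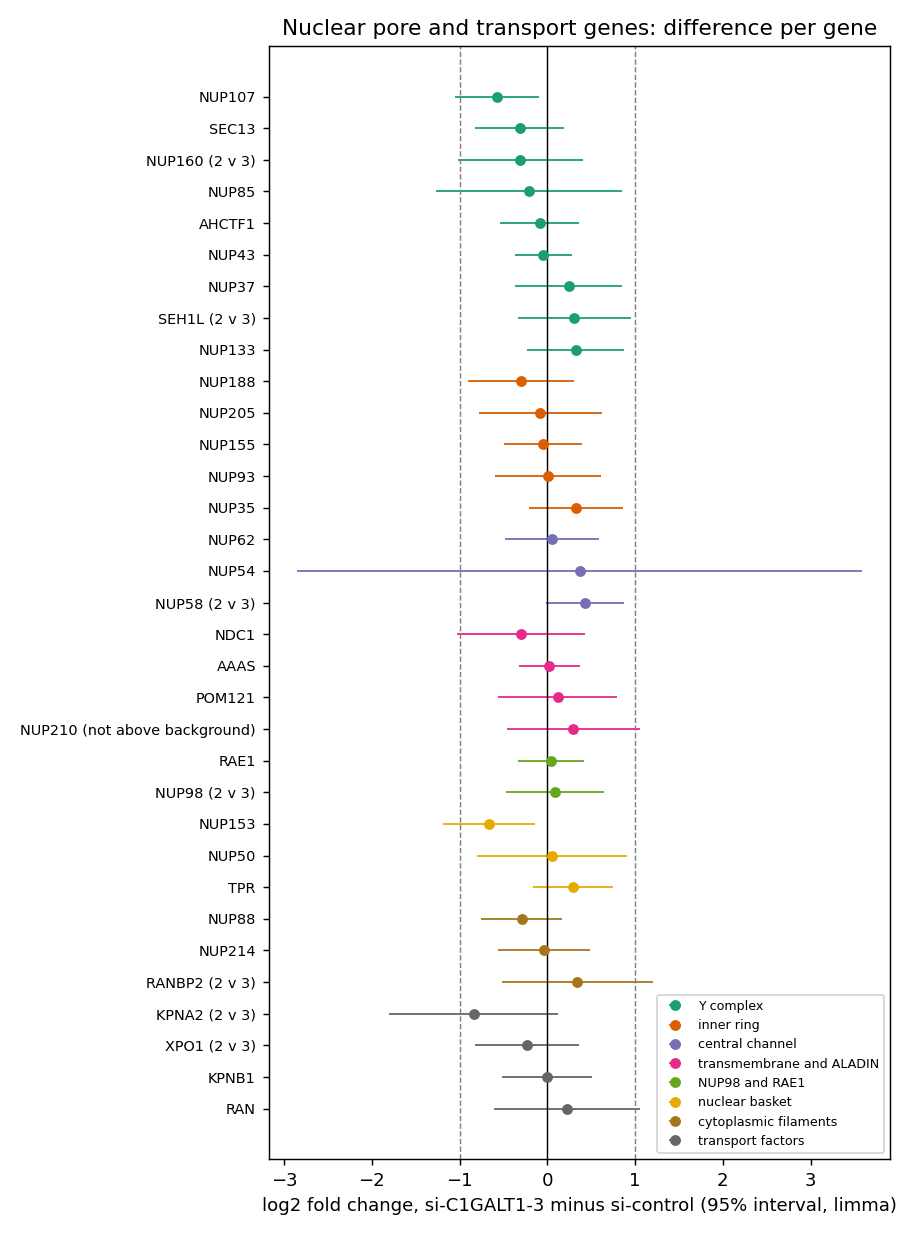
Fitted log2 fold change of each of the 33 members (x axis, si-C1GALT1-3 minus si-control) with its 95% limma interval, grouped and coloured by subcomplex; dashed lines mark a 2-fold change and "2 v 3" marks members with 2 si-control arrays. The values run from -0.84 (KPNA2) to 0.43 (NUP58), no point passes a dashed line, and the interval of NUP54 is the widest.

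The Y complex, the outer scaffold ring, has 9 members here, of which 6 were fitted below 0 and 3 above, with a median of -0.08. NUP107, a stem subunit of that complex, read 11.82, 11.99 and 11.71 in si-control and 11.37, 11.49 and 10.94 in si-C1GALT1-3. No si-C1GALT1-3 array reached the lowest si-control array. The difference was -0.57 (SE 0.19, 1.49-fold lower, limma adjusted p = 0.292). Groups that do not overlap in this direction were found for 2 of the 26 members on 6 arrays (NUP107 and NUP153) and for 9.36% of probes on 6 arrays, and in the other direction for 0 of 26 members and 9.98% of probes.

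SEC13, which also coats COPII vesicles, read 12.84, 13.40 and 13.28 in si-control and 12.67, 12.84 and 13.06 in si-C1GALT1-3, and si-control 1 lay within the range of the other group. Its difference was -0.32 (SE 0.21). NUP133, the stem neighbour of NUP107, went the other way at 0.33 (SE 0.22), with 11.59, 12.20 and 12.24 against 12.14, 12.46 and 12.40. Its groups overlapped, with si-control 2 and 3 close to the si-C1GALT1-3 arrays and si-control 1 low, but on each of the 3 slides, which held 1 array of either group, the si-C1GALT1-3 array read higher, by 0.55, 0.27 and 0.16. NUP160, with si-control 2 missing, read 12.05 and 12.78 against 12.05, 12.01 and 12.25, and SEH1L, also a subunit of the GATOR2 complex of nutrient sensing, read 11.19 and 11.86 against 11.74, 11.85 and 11.90. Both overlapped between groups, at -0.31 (SE 0.27) and 0.31 (SE 0.25). The other 4 were NUP85 at -0.21 with a wide SE of 0.43, AHCTF1 (ELYS, which brings the complex to chromatin after mitosis) at -0.08, NUP43 at -0.05 and NUP37 at 0.24. NUP43 was the most tightly measured member, with an SE of 0.13 and an interval of -0.37 to 0.28.

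The inner ring, the scaffold that lines the channel, had no member with p under 0.05, and all 5 intervals lay within 2-fold. NUP35, which touches the pore membrane, read 11.38, 11.65 and 12.11 in si-control and 12.00, 11.97 and 12.14 in si-C1GALT1-3. The si-control 3 array lay among the si-C1GALT1-3 arrays, and the difference was 0.33 (SE 0.22). NUP188 was at -0.30 (SE 0.24), NUP205 at -0.08, NUP155 at -0.05 and NUP93, the hub of the ring, at 0.0054 (SE 0.24).

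The central channel is formed by NUP62, NUP58 and NUP54, whose repeats make up much of the permeability barrier. NUP62 differed by 0.05 (SE 0.22). NUP58 read 11.12 and 11.25 in si-control, with si-control 2 missing, and 11.54, 11.78 and 11.52 in si-C1GALT1-3. It was the largest rise among the members, 0.43 (SE 0.17, 1.35-fold, limma adjusted p = 0.374), and its interval of -0.01 to 0.88 held 0. Its si-C1GALT1-3 arrays lay above both si-control arrays, as was found for 16.5% of probes measured on 2 and 3 arrays.

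NUP54 changed sign, and passed the threshold, when the dim region was drawn wider. It read 11.68, 7.18 and 11.91 in si-control and 10.78, 10.83 and 10.26 in si-C1GALT1-3. The si-C1GALT1-3 arrays lay below si-control 1 and 3 and far above si-control 2, so the fitted difference was 0.37 with an SE of 1.30 and an interval of -2.85 to 3.59. The spot sits at row 209 and column 116 of the array, 1 column outside the masked rectangle. On si-control 2 its log2 signal minus the mean of the other si-control arrays was -4.09. Among the 8 neighbouring spots brighter than log2 10, within 3 rows and 2 columns on each side, 7 were also more than 1 log2 unit low, and their median deviation was -1.66. With the rectangle widened by 10 rows and columns on each side, the NUP54 difference became -1.17 (SE 0.24, 2.25-fold lower, 95% interval -1.80 to -0.54, limma adjusted p = 0.168), with 2 si-control arrays in the fit. That passed p under 0.01 and 2-fold as lower, as did 0.995% of probes under the same mask. Without the si-control 2 array altogether it was -1.17 (SE 0.24) and passed as well. NUP54 has 1 probe on this array, so no other probe bears on it. The study lists NUP54, without a direction, among selected mitotic cell cycle genes with differential expression after C1GALT1 knockdown. The main fit here, which kept the dim si-control 2 spot, did not call it.

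**Figure D2:**
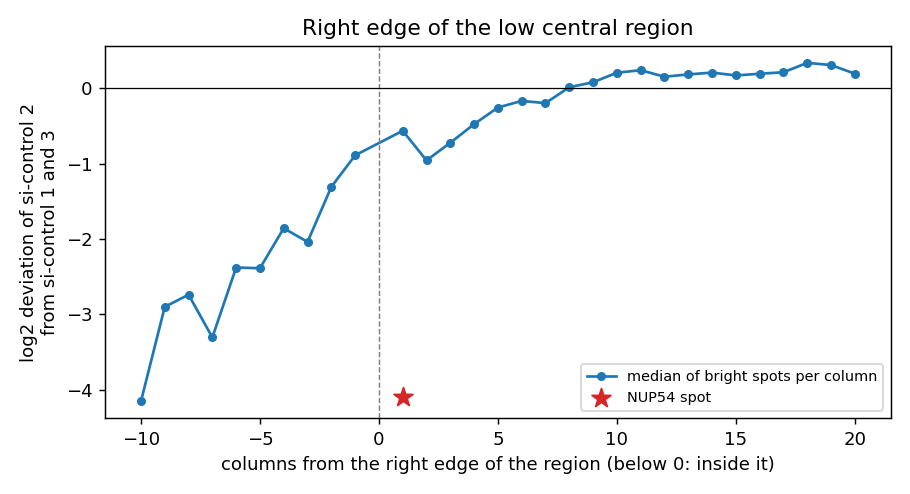
Median log2 deviation of si-control 2 from the mean of si-control 1 and 3 over the bright spots of each array column (y axis), against the distance of the column from the right edge of the masked rectangle (x axis, below 0 inside it), with the NUP54 spot as a star. The median column was at -0.89 in the last column inside, at -0.56 in the column of NUP54 and at 0.01 by 8 columns out; NUP54 itself was at -4.09.

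Beyond NUP54, 4 other members (NUP205, AAAS, TPR and RAN) had their spot in that 10-wide border. With the border masked too, their differences were -0.34, -0.01, 0.33 and 0.09, and none of them passed p under 0.05. For the 7 members inside the rectangle, keeping the dim spots gave NUP58 3.06 (SE 2.23), RANBP2 2.20 (SE 1.60), SEH1L 1.91 (SE 1.37), NUP98 1.14 (SE 0.91), NUP160 0.61, XPO1 0.38 and KPNA2 -0.28. With them missing, the same members were at 0.43, 0.34, 0.31, 0.09, -0.31, -0.23 and -0.84. All 7 values were lower with the rectangle masked, and NUP160 and XPO1 changed sign.

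**Figure D3:**
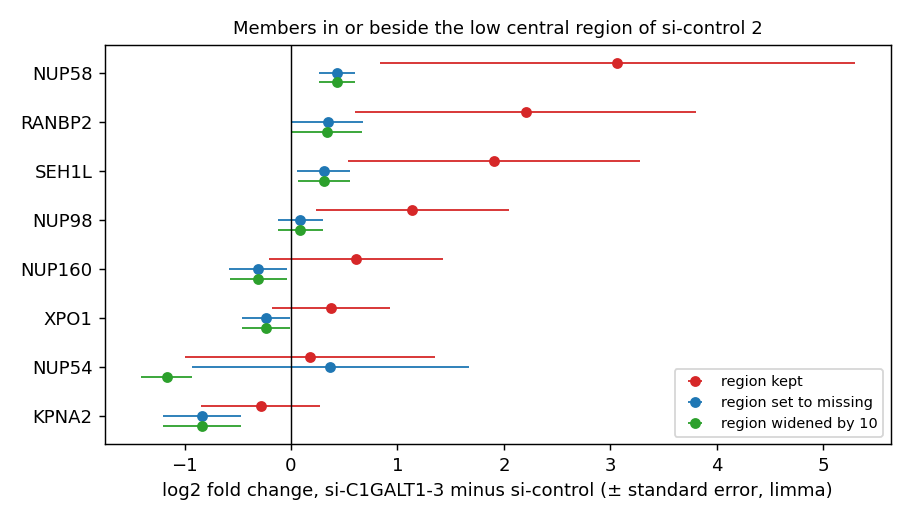
Log2 fold change (x axis, ± standard error from limma) of NUP54 and of the 7 members inside the dim rectangle of si-control 2, with the rectangle kept (red), set to missing (blue) or widened by 10 rows and columns (green). The red points lie to the right of the blue ones for the 7 members inside, and NUP54 lies at -1.17 only when the rectangle is widened.

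The nuclear basket, which faces the chromatin, held the member with the smallest p. NUP153, a repeat-rich basket nucleoporin that binds importins and chromatin, read 12.51, 12.95 and 13.08 in si-control and 12.19, 12.40 and 11.97 in si-C1GALT1-3. The lowest si-control array was still above the highest si-C1GALT1-3 array. The difference was -0.66 (SE 0.21, 1.58-fold lower, limma adjusted p = 0.275). TPR, the main filament of the basket, was at 0.29 (SE 0.18), and NUP50, a mobile cofactor of importin alpha, at 0.05 (SE 0.35).

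Of the pore membrane proteins and ALADIN, none had p under 0.05. NDC1 was at -0.30 (SE 0.29), POM121 at 0.12 (SE 0.28) and AAAS, the gene of ALADIN, at 0.02 (SE 0.14). NUP210 stayed near background on each of the 6 arrays, not well above it, and is given no fold. NUP98, a mobile repeat nucleoporin that also acts in transcription, read 11.19 and 11.71 against 11.46, 11.59 and 11.56, and its partner in mRNA export RAE1 differed by 0.04 (SE 0.15). NUP98 overlapped between groups at 0.09 (SE 0.21).

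On the cytoplasmic face, RANBP2, the filament protein that carries SUMO ligase activity, read 8.59 and 9.22 in si-control and 9.16, 8.91 and 9.68 in si-C1GALT1-3. The groups overlapped at a difference of 0.34 (SE 0.33). NUP88 and NUP214, which dock export complexes, were at -0.29 (SE 0.19) and -0.04 (SE 0.21).

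Among the 4 transport factors, KPNA2 (importin alpha 1, the adaptor that reads classical nuclear localization signals) had the lowest fitted value of all members. It read 14.56 and 15.66 on the measured si-control arrays and 14.24, 14.44 and 14.13 with si-C1GALT1-3. All 3 si-C1GALT1-3 arrays were below both si-control arrays, as for 16.1% of probes on 2 and 3 arrays, but the si-control pair lay farther apart from each other than si-control 1 lay from the other group. The difference was -0.84 (SE 0.37, 1.79-fold lower, limma adjusted p = 0.416), and it rested on which si-control array was used: -1.39 without si-control 1, which left si-control 3 as its only control value and passed p under 0.01 and 2-fold, and -0.29 without si-control 3. KPNB1 (importin beta 1, its carrier) read 14.69, 15.05 and 15.30 against 14.86, 15.22 and 14.95 and differed by -0.0023 (SE 0.21), with an interval of -0.52 to 0.51. The KPNB1 groups overlapped throughout. RAN read 14.35, 14.52 and 15.46 against 14.75, 14.98 and 15.27, a difference of 0.22 (SE 0.33), and XPO1 (the main exportin, CRM1) read 13.43 and 13.97 against 13.46, 13.59 and 13.35, a difference of -0.23 (SE 0.23). Both overlapped between groups.

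**Figure D4:**
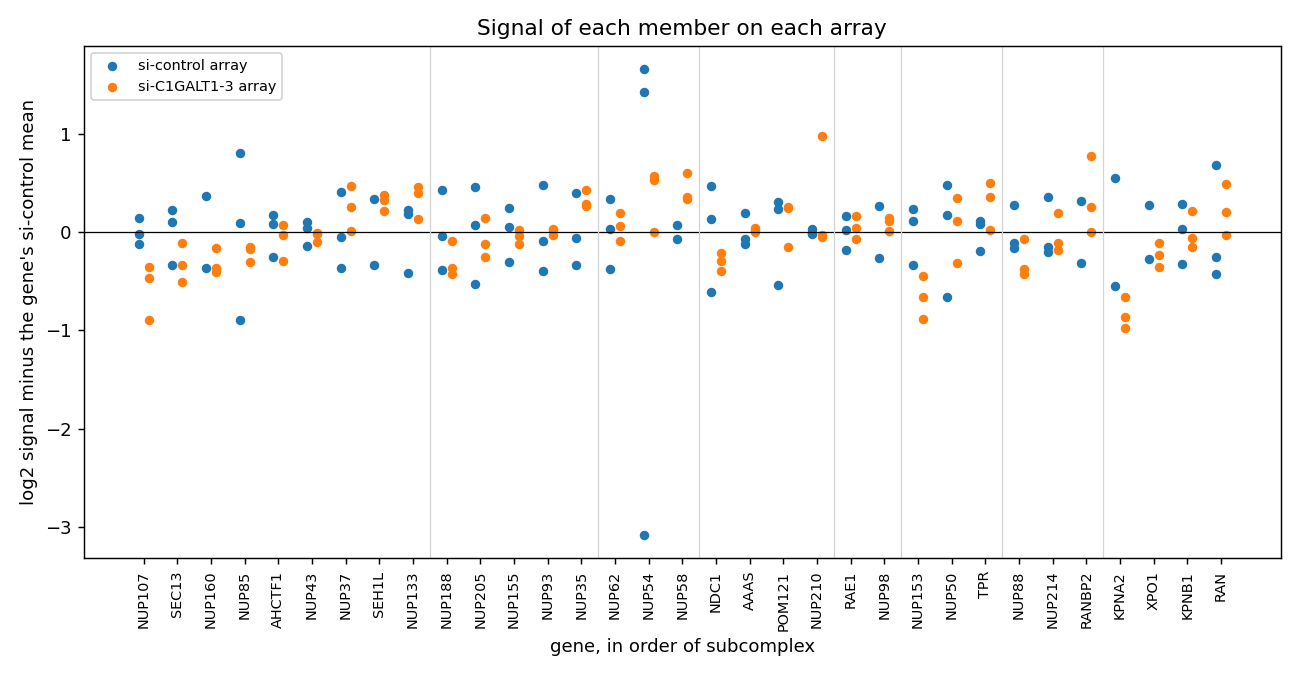
Log2 signal of each member on each array minus that gene's si-control mean (y axis), with genes in order of subcomplex (x axis, grey lines between subcomplexes); blue points are si-control arrays and orange points si-C1GALT1-3 arrays. The blue points are more spread than the orange ones for most genes, NUP107, NUP153 and KPNA2 have all orange points below the blue ones, and the blue point of NUP54 near -3 is si-control 2.

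Compared slide by slide, 5 of the 26 members on 6 arrays (NUP107, SEC13, AHCTF1, NUP153 and NUP88) were lower with si-C1GALT1-3 on all 3 slides, beside 21.8% of probes, and 3 (NUP133, NUP35 and TPR) were higher on all 3, beside 22.3%. With the slide as a block in limma the SE of NUP107 went from 0.19 to 0.13 and that of NUP133 from 0.22 to 0.14, at adjusted p = 0.221 and 0.339. The SE of NUP153 stayed at 0.21, with its unadjusted limma p going from 0.022 to 0.039, and that of KPNA2 rose from 0.37 to 0.41. The block also left fewer residual degrees of freedom, and the count of members called stayed at 0.

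The members, like the arrays as a whole, varied more among the si-control arrays than among the si-C1GALT1-3 arrays. Over the 32 members above background, the median SD was 0.37 in si-control and 0.17 in si-C1GALT1-3, and 29 of 32 had the larger SD in si-control. Over all probes well above background the median SDs were 0.34 and 0.23, and 67.7% had the larger SD in si-control. Over the 26 members on 6 arrays, the median deviation from each gene's mean was -0.19, 0.03 and 0.28 on si-control 1, 2 and 3 and -0.09, 0.03 and -0.0020 for si-C1GALT1-3. Over all probes the medians were -0.02, -0.02 and 0.01 on si-control 1, 2 and 3. The nuclear pore genes thus read low as a group on si-control 1 and high on si-control 3. That order was not particular to them: PCNA and KRT19 also climbed from si-control 1 to 3, while EPCAM and CLDN4 did not. The median difference of the 33 members was -0.14 without si-control 1 and 0.14 without si-control 3. Of the 14 members with another probe, 7 had probes of opposite sign (KPNB1, NUP43, NUP62, NUP98, RAN, SEH1L and TPR). The other probe of SEH1L read -0.24 (SE 0.36), on all 6 arrays, and that of TPR -0.21 (SE 0.50). The intervals of 0 pairs lay apart, and the median gap was 0.11. The largest gap, 0.71, was at POM121, whose dimmer probe also lies just outside the rectangle.

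The sequences before the start sites of the 3 members with the lowest fitted values and of NUP54 are shown with matches to short elements, of which CHR and the CCAAT box are known from promoters of cell division genes. RefSeq (GRCh38.p14) gave 39 promoters for 30 of the 33 members, and 8 of these genes had several starts. In the counts below, for members and for all genes, a gene held an element if any of its promoters did. Each sequence below is the 250 bases before the annotated start, 5′ to 3′ on the strand of the gene, and capitals mark matches to CHR (TTTGAA), the CCAAT box (CCAAT) or an ETS motif (CCGGAAG), searched on both strands. KPNA2 lies at chr17:68035485-68035734 on the plus strand, NUP153 at chr6:17706926-17707175 on the minus strand, NUP107 at chr12:68686728-68686977 on the plus strand and NUP54 at chr4:76148398-76148647 on the minus strand.
KPNA2: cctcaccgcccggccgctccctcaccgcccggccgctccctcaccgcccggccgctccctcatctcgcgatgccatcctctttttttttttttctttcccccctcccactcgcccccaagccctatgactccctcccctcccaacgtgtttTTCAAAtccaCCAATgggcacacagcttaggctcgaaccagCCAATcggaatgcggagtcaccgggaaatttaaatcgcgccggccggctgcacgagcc
NUP153: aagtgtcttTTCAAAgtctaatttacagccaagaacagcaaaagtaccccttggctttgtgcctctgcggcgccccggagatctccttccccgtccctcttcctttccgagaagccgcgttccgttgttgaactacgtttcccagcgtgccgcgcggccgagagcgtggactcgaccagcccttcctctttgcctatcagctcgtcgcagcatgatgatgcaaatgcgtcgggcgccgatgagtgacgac
NUP107: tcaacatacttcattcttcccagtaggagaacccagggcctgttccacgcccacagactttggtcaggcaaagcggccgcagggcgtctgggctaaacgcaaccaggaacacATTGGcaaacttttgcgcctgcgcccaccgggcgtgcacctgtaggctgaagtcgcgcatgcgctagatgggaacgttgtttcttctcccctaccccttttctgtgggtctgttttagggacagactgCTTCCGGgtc
NUP54: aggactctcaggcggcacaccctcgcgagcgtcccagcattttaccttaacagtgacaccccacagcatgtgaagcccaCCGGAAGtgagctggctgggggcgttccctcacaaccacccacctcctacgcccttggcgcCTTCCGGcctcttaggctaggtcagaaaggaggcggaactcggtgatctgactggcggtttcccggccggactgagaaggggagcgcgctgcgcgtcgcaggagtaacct
KPNA2 held a CHR match that begins 99 bases before the start and CCAAT boxes at 89 and 58, NUP153 a CHR match at 241, NUP107 a CCAAT box and an ETS match at 138 and 10, and NUP54 ETS matches at 171 and 110. Over the 30 members, CHR was found in 8 (26.7%, beside 16.1% of 27305 genes with a promoter of this length), the CCAAT box in 11 (36.7% beside 37.0%) and the ETS motif in 12 (40.0% beside 10.2%), and no marked match overlaps another. A match is a run of letters and says nothing of binding.

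Of 63 other transport and nuclear envelope genes, 2 passed p under 0.01 and 2-fold as lower (beside 0.991% of all probes) and 0 as higher (beside 1.65%), and 10 had p under 0.05 (15.9%, beside 13.8% of all probes). Si-control 2 was missing for 14 of the 63. KPNA4, whose spot at row 110 and column 95 lies just outside the rectangle, was also dim on si-control 2. It read 12.86, 11.17 and 12.95 against 11.87, 12.05 and 11.93, a difference of -0.37 (SE 0.50). Both that passed were importins measured on every array, each by 1 probe. IPO8, an importin beta family carrier, read 10.94, 11.54 and 11.40 in si-control and 9.80, 10.14 and 9.27 in si-C1GALT1-3. Every si-C1GALT1-3 array was below every si-control array, and it fell by 1.55 (SE 0.28, 2.94-fold, limma adjusted p = 0.13). KPNA3, an importin alpha of another subfamily than KPNA2, read 10.27, 10.56 and 10.63 against 9.32, 9.30 and 9.24. It fell by 1.20 (SE 0.15, 2.30-fold, limma adjusted p = 0.0823), and its groups did not overlap either. The largest rise among the 17 other importins, IPO9, was likewise near background throughout and is given no fold.

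Each of the 6 Ran cycle genes was fitted below 0 (beside 50.9% of all probes), with a median of -0.31. In limma 3 of 6 had p under 0.05 (beside 13.8%). RANBP3 at -0.02 (SE 0.19) and NUTF2 at -0.09 (SE 0.36) lay near 0, and RCC1 was at -0.30 (SE 0.24). RANGAP1 was 1.41-fold and RANBP1 1.25-fold lower. RANGRF (MOG1, a Ran-binding protein) was the lowest, at -0.80 (SE 0.15, 1.74-fold lower, limma adjusted p = 0.137), short of 2-fold, and its other probe read -0.70 (SE 0.21). Among the 6 other exportins the range was -0.37 for CSE1L, which returns importin alpha to the cytoplasm, to 0.31 for XPO4, and 0 had p under 0.05. The 18 mRNA export genes ran from -0.62 for the helicase DDX39A (SE 0.47) to 0.57 for THOC2 of the THO complex (SE 0.24). Both extremes were among the 4 genes of that list with si-control 2 missing. The 16 lamina and envelope genes ran from -0.72 for TMPO (LAP2, SE 0.32) to 0.88 for TOR1AIP2 (a torsin activator, SE 0.26), whose other probe read -0.24 (SE 0.29).

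Genes of dividing cells moved with the groups on the same arrays. All 9 cell division markers with a probe were fitted below 0, with a median of -1.26. All 9 had groups that did not overlap (beside 9.36% of probes on 6 arrays and 16.1% on 2 and 3 arrays, as for CCNB1), and 6 passed p under 0.01 and 2-fold as lower (beside 0.991%): TOP2A, CCNA2, CDK1, BUB1, CDC20 and UBE2C. The 7 S phase markers, 3 of them with si-control 2 missing, had a median of -0.61. MCM5 (-1.05, SE 0.18, on 2 si-control arrays) passed. The study names the 6 division markers that passed, CCNB1 and MCM5 among selected genes with differential expression on these same arrays. The marker counts are therefore not independent of the study's own calls. The part of dividing-cell genes in the values of NUP107, NUP153, KPNA2, KPNA3 and IPO8 was not tested. In bulk RNA, fewer cells of a kind and less RNA per cell cannot be told apart.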

How the data were processed

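RNA of AGS cells was hybridised to 1-colour Agilent 60K arrays, 6 in all. The authors deposited scanner intensity values per spot, made with Agilent Feature Extraction (version 10.5.1.1 per the submitters' processing notes), with yes-or-no marks for spots above background, saturated or outlying. The authors' value table held the background-subtracted intensity. Between 66.2% and 72.7% of the 60901 gene spots of an array were well above background, 0 were saturated and 100 to 424 were marked as outliers and left out. The number of arrays limits the precision.

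Here the processed signal was log2-transformed and set to missing on si-control 2 in rows 113 to 288 and columns 59 to 115. It was then quantile normalized over the spots and averaged over the spots of a probe. Of 58201 probes, 58195 were tested with limma 3.58.1 (lmFit, eBayes, two-sided) in R 4.3.3. Calls used p under 0.01 and 2-fold, with Benjamini-Hochberg adjustment over all probes tested given beside. Probes were named through RefSeq accessions (31104 of them), with the brightest probe per gene. The script was tested on simulated arrays with known changes. The calls recovered 24 of 66 changes of log2 1 (36.4%), which lie at the fold threshold itself, and 52 of 61 changes of log2 2 (85.2%). Of the unchanged simulated probes, 0.533% were called. The array annotation and the RefSeq promoters are of different builds, so only promoter coordinates are given.

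Each of 3 slides held the si-control and si-C1GALT1-3 arrays of 1 replicate number, with si-control always in the first array column, so array column and treatment cannot be told apart. Deviations from the group means correlated at 0.198, 0.215 and 0.329 for same-numbered arrays and at -0.215 to 0.0103 for all other pairs, so same-numbered arrays count as pairs. The main fit had no block, and the slide as a block was an alternative.

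Described per array were the members that pass, the 5 largest rises and falls, NUP54 (named in a table of the study), the transport factors and the masked members; other transport lists were described by those that pass and their largest rise and fall. PLK1 had no probe by accession. Members and lists were chosen with earlier results of these data known. Alternatives were 75th percentile or no scaling, normexp on the median spot signal (offset 50, as the mean was not used here), dim probes left out, the region kept or widened by 10, outlier spots kept, a trended robust prior, the replicate block, the median over probes, Student's t-test (the study's array methods name limma), the authors' value table with a floor of 10, and each array left out.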

Additional observations from a re-analysis of the deposited data

How the results depend on the processing

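No member was called higher under any of these alternatives, and 2 other transport genes (IPO8 and KPNA3) were called lower under each. The count of members called lower moved from 0 to 1 with the region widened (NUP54) and ranged from 0 to 1 over the arrays left out (KPNA2 at -1.39 without si-control 1, NUP54 at -1.17 without si-control 2); with single si-control values, the lone array was assumed to vary like the others. With the region kept, NUP160 turned to 0.61 and XPO1 to 0.38, and with it widened, NUP54 turned to -1.17. Over the arrays left out, NUP54 ranged from -1.17 to 1.19, SEH1L from -0.025 to 0.64, NUP160 from -0.67 to 0.060 and XPO1 from -0.51 to 0.039. The cause was not tested beyond these settings. The median of the members ranged from -0.14 to 0.14 over the arrays left out. With the replicate block, 0 members were called in either direction, 2 other transport genes were called and the member median was 0.0054, so the pairing changed no call. C1GALT1 passed p under 0.01 with dim probes left out. Of 647 values of single genes under the alternatives, 2 became called with the same sign and 55 had the other sign, of which 7 (given above) belonged to genes whose main difference exceeded its SE or that were called in either fit, and 48 to other genes.

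Over all probes, 1538 were called, but 896 by Student's t-test and 915 after normexp. Lower calls were 37.5% of these, but 45.9% with the 75th percentile, 27.4% with no scaling, 47.9% without si-control 1 and 59.8% with the region kept. The 75th percentile shifted the median of all probes to -0.11, and the members lay 0.06 above it. In leaving out dim probes, NUP210 had no value. Members measured on all 6 arrays, a setting chosen after seeing the data, gave 0 calls and a median of 0.0015.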
